A study of Mus musculus with 12 samples.

Results

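The 200 brightest transcripts that still carry a RIKEN clone name (a symbol ending in Rik) on the array were followed across 4 groups of mice. They were chosen by signal: among 2189 such symbols with a transcript cluster of exactly 1 symbol, the brightest cluster per symbol was kept, and the 200 symbols with the highest mean log2 signal over all 12 arrays were taken. A transcript cluster is the set of array probes summarised to 1 value for a gene or transcript. The mean over all arrays chose the members, so their levels are given as a description with no test, and only differences between groups were tested. Each symbol was looked up in a RefSeq gene table. It now lists 126 members as protein-coding, 62 as long non-coding RNA, 4 as miscellaneous RNA and 8 as transcribed pseudogenes. A gene name has since replaced the clone name for 56 members, and 144 keep it.

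The samples were quadriceps muscles of 12 male mice aged 6 weeks, all of C57BL/10 background and utrn+/-;mdx genotype. These mice lack dystrophin and carry 1 copy of Utrn, the gene of its relative utrophin, so every group, the untreated one included, is dystrophic, and no healthy muscle was among the samples. The 4 groups of 3 biological replicates were untreated mice on normal chow, mice given spironolactone (100 mg/kg per day) plus lisinopril (20 mg/kg per day), mice given eplerenone (200 mg/kg per day) plus lisinopril (20 mg/kg per day), both in medicated pellets, and mice given prednisolone (1.5 mg/kg per day) in the water bottle, all from 4 to 6 weeks of age. Each array measured 1 replicate, and no group received drug-free pellets, so pellet and drug cannot be told apart. Spironolactone and eplerenone block the mineralocorticoid receptor, lisinopril inhibits angiotensin-converting enzyme, and prednisolone is a synthetic glucocorticoid used in Duchenne muscular dystrophy.

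Rik names were given to full-length mouse cDNA clones for which no gene name existed when they were sequenced. The set is therefore joined by its naming history and not by a pathway. It mixes long non-coding RNAs, small proteins found late because of their short reading frames, and ordinary enzymes, zinc finger and membrane proteins whose function was worked out afterwards. In skeletal muscle some of these once nameless transcripts are now known micropeptides of calcium handling and of mitochondria.

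The members' mean levels ran from 6.997 to 16.14 (log2 signal), with a median of 7.96, against a median of 5.76 over all 30412 clusters that pair with 1 symbol and 4.69 over the other 1989 Rik symbols. Of the 200, 101 lay below 8, 43 above 9 and 20 above 10. The last 3 symbols inside the limit were 1700049G17Rik (now Zfp974, 6.9992), 6330416G13Rik (now Tmem268, 6.9977) and 4930555K19Rik (6.9968). The first 3 outside were 6030442K20Rik (6.9962), D130051D11Rik (6.9960) and 2900026A02Rik (6.9906), so the boundary follows no gap in signal. Brightness depends on the probes of each cluster as well as on RNA, so the order of levels is not an order of abundance. Only 7 members were measured by more than 1 cluster.

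The brightest member was the long non-coding RNA 5430431A17Rik, at 16.14. It read 16.23, 15.74 and 15.33 in untreated muscle, 16.11, 15.58 and 16.17 with spironolactone plus lisinopril, 16.22, 16.11 and 16.24 with eplerenone plus lisinopril, and 16.04, 17.12 and 16.79 with prednisolone. Its untreated and prednisolone arrays overlapped, and the difference of 0.88 did not pass (limma adjusted p = 0.0911). F830016B08Rik, an interferon-inducible GTPase also known as Ifgga4, followed at 15.05. Its 3 untreated arrays, 14.51, 13.94 and 15.91, spanned the values of every other array. Next came the transcribed pseudogene E030024N20Rik (15.01) and 3425401B19Rik (14.30), also known as Cefip, a Z-disc protein of heart and skeletal muscle. 3425401B19Rik read 14.36, 13.42 and 13.21 in the untreated arrays and 14.27 or more in all others, so that untreated replicate 1 lay among the treated mice and replicates 2 and 3 below them. The other 6 of the 10 brightest were 4833439L19Rik (13.85), 1700020I14Rik (now Oip5os1, a deeply conserved long non-coding RNA known as Cyrano, 13.62), 2610507B11Rik (13.38), 1110002E22Rik (12.04), 2610005L07Rik (11.72) and B230219D22Rik (11.43). None of these 10 passed the threshold for prednisolone against untreated. The nearest was 4833439L19Rik, 0.38 higher (SE 0.10, n = 3 per group, limma adjusted p = 0.0506).

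**Figure D1:**
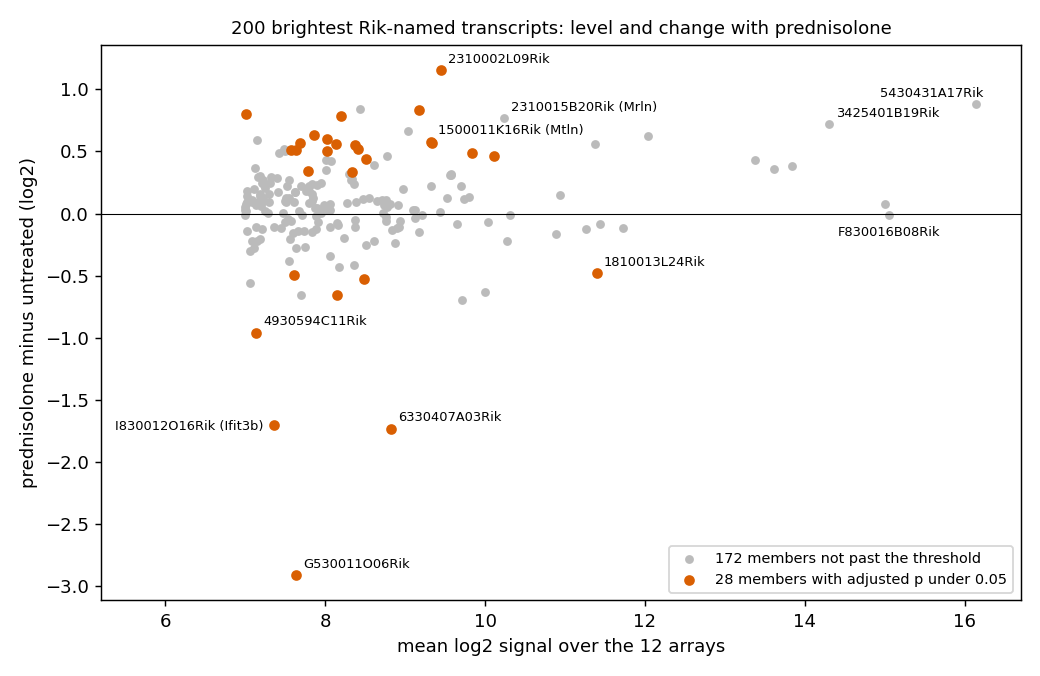
Each point is 1 of the 200 members: mean log2 signal over the 12 arrays (x axis) against the prednisolone minus untreated difference in log2 signal (y axis). The 28 members past the threshold are orange; 2 of them have a level above 10, and the lowest point, G530011O06Rik, lies at -2.91.

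The arrays themselves were alike in overall level, with medians over the tested clusters of 5.70 to 5.81. Skeletal muscle markers averaged 18.7 to 19.1 on the log2 scale in the 12 arrays, as the tissue label says. Acta1 and Myh4 had identical values in each array, with a mean of 19.92. The muscle average therefore cannot show that muscle content was alike. The untreated group was uneven in other cells: the 8 neutrophil markers averaged 9.25 and 9.08 in untreated replicates 2 and 3, but 6.64 in untreated replicate 1 and 5.89 to 6.87 in the 9 treated arrays. The 10 macrophage markers averaged 12.88 to 13.57 in untreated muscle and 12.18 to 12.58 with prednisolone, and 3 of the 10 fell. They averaged 12.44 to 12.68 with spironolactone plus lisinopril and 12.25 to 12.89 with eplerenone plus lisinopril. In each of these groups 1 of the 10 fell, Cd14, at -1.76 and -1.79 against untreated (limma adjusted p = 0.028 and 0.0235). With prednisolone 2 of the 8 neutrophil markers fell too. The 4 measured fibroblast markers averaged 15.82 to 15.97 with prednisolone and 16.16 to 16.48 in all other arrays, and 2 of them fell, the collagen genes Col1a1 and Col1a2, by 0.66 and by 0.39 (limma adjusted p = 0.00208 and 0.0182). The 6 T cell markers averaged 5.60 to 5.68 with prednisolone and 5.89 to 6.17 elsewhere, and 2 fell, Thy1 and Cd3e (limma adjusted p = 0.0122 and 0.029). Of the 5 endothelial markers 1 fell, Cdh5, by 1.48 (limma adjusted p = 0.0106). No adipocyte marker passed in any comparison. The 6 measured adipocyte markers were highest in spironolactone plus lisinopril replicate 3 (12.03) and prednisolone replicate 1 (11.44), and lay between 8.68 and 10.36 elsewhere. In whole muscle, fewer cells of a type and less RNA per cell cannot be told apart. The part of these cells in the differences below was not tested.

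Prednisolone against untreated muscle was the comparison with the most members past the threshold. In it, 28 of 200 passed (limma moderated test, Benjamini-Hochberg adjusted p under 0.05 over 30412 clusters), 20 higher and 8 lower, or 14%. Over all tested clusters the share was 6.39%, but among the 10620 clusters without a Rik name that were at least as bright as the lowest member it was 13.8%, so the members' share was close to that of transcripts as bright. Of the 1989 dimmer Rik symbols 23 passed, or 1.16%. The median difference was 0.09 over the members and -0.01 over all clusters, and 132 members (66.0%) lay above 0, against 47.3% of all clusters and 49.6% of those as bright. Prednisolone and untreated arrays did not overlap for 80 members (40.0%, 55 higher and 25 lower), beside 26.7% of all clusters and 41.6% of those as bright. A difference of 2-fold or more was reached by 4 members (2.0%), 3 lower and 1 higher, against 1.69% of all clusters and 3.82% of those as bright.

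The number of calls varied with the arrays used, and the share of all clusters past the threshold in these refits was not counted. The count was 8 without untreated replicate 3, 11 without untreated replicate 2, and 8, 4 and 17 without prednisolone replicates 1, 2 and 3, against 31 without untreated replicate 1. Because the neutrophil markers split the untreated group, the differences were also taken against untreated replicate 1 alone. That arm is a single array assumed to vary like the other groups, and its larger SE alone can end a call, so the sizes are the values to read: 22 of the 28 differences stayed within 1.5 times of those given here, 6 shrank by more, and 3 members passed (G530011O06Rik, 6330407A03Rik and 4930594C11Rik, all lower). All 28 kept their direction in each of 21 alternative analyses, and 2 passed in every one, G530011O06Rik and 6330407A03Rik. The prednisolone and untreated arrays of all 28 did not overlap, so leaving out arrays could not reverse a direction. The kept direction is therefore no separate support. The sizes against untreated replicate 1 use arrays that also chose the 28, so their closeness is partly built in.

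G530011O06Rik, a long non-coding RNA, fell furthest. Its log2 signals were 8.04, 9.73 and 9.35 in untreated muscle, 7.61, 7.85 and 7.69 with spironolactone plus lisinopril, 7.44, 7.71 and 7.86 with eplerenone plus lisinopril, and 6.56, 6.06 and 5.77 with prednisolone. Every prednisolone array lay below every other array, and every untreated array above all others. Against untreated it fell by 2.91 on the log2 scale (SE 0.35, 7.51-fold, n = 3 per group, limma adjusted p = 0.00316). Against untreated replicate 1 alone it fell by 1.91. Both lisinopril combinations lay lower than untreated too, by values of -1.32 and -1.37 that did not pass (limma adjusted p = 0.173 and 0.206). The gene table places this gene beside Erdr1, and RefSeq lists promoter windows for it on both X and Y, with an identical run of 168 bases between the windows, so signal from near-identical copies cannot be separated. The 250 bases before its start on X are shown because this member had the largest difference, with the one match to a glucocorticoid receptor binding hexamer (TGTTCT on either strand) in capitals, its first base 29 before the start (RefSeq, GRCm38.p6, chrX:169978918-169979167, minus strand).
G530011O06Rik: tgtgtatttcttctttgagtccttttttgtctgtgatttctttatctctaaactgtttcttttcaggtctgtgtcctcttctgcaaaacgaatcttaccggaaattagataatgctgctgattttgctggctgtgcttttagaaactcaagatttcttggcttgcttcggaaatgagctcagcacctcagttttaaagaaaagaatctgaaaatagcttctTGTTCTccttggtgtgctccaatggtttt

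6330407A03Rik, another long non-coding RNA, read 10.02, 9.32 and 9.51 in untreated muscle, 9.19, 9.20 and 8.87 with spironolactone plus lisinopril, 8.69, 8.53 and 8.94 with eplerenone plus lisinopril, and 7.41, 7.93 and 8.32 with prednisolone. The prednisolone arrays lay below all the others and the untreated arrays above all the others. It fell by 1.73 against untreated (SE 0.23, n = 3 per group, limma adjusted p = 0.00375). Compared directly, it was 1.20 higher with spironolactone plus lisinopril than with prednisolone (SE 0.23, limma adjusted p = 0.0448).

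I830012O16Rik is now Ifit3b, an interferon-induced gene of the tetratricopeptide repeat family. It read 8.03, 7.31 and 8.26 in untreated muscle, 7.48, 6.74 and 7.81 with spironolactone plus lisinopril, 8.61, 8.28 and 7.29 with eplerenone plus lisinopril, and 6.23, 6.39 and 5.89 with prednisolone. The other 3 groups overlapped one another, between 6.74 and 8.61, and the 3 prednisolone arrays lay below all of them. With prednisolone it fell by 1.70 against untreated (SE 0.37, n = 3 per group, limma adjusted p = 0.0232). Its neighbour Ifit3 was 9.26 ± 0.59 (SD, n = 3) in untreated and 7.83 ± 0.11 (SD, n = 3) in prednisolone muscle, a difference of -1.43 at limma adjusted p = 0.0507. Probes of these paralogs may pick up each other's RNA. The promoter of Ifit3b is shown because 3 matches to the core of the interferon-stimulated response element (GAAANNGAA on either strand, in capitals) lie in it, with first bases 187, 153 and 134 before the start (RefSeq, GRCm38.p6, chr19:34607707-34607956, plus strand). This motif was added to the search after the values were seen. It also lay in 1 of the 18 windows of members that rose with prednisolone, that of 2310022B05Rik.
I830012O16Rik: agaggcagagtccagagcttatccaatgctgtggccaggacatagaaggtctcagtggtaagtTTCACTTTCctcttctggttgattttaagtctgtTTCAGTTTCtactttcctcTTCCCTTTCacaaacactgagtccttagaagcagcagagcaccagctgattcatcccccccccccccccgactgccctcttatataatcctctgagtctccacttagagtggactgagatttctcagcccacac

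The other 5 members that fell did so by less than 1 log2 unit. 4930594C11Rik, a transcribed pseudogene, read 8.05, 7.21 and 7.91 in untreated muscle and 6.61 to 7.17 in all 9 treated arrays, and fell by 0.96 with prednisolone (SE 0.18, limma adjusted p = 0.0133). Its values with spironolactone plus lisinopril and with eplerenone plus lisinopril were -0.70 and -0.71 against untreated, neither past the threshold (limma adjusted p = 0.161 and 0.196). 4930503L19Rik fell by 0.65, the zinc finger gene 2610305D13Rik (now Zfp979) by 0.53 and the long non-coding RNA 2810025M15Rik by 0.49. 2810025M15Rik was even across untreated muscle, at 7.94, 7.92 and 7.93, and lay between 7.22 and 7.71 in all treated arrays. 1810013L24Rik, the brightest of the 8 at 11.40, fell by 0.48, or by 0.31 against untreated replicate 1 alone. A dimmer cluster of the same symbol differed by -0.23 and did not pass (limma adjusted p = 0.526).

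2310002L09Rik, a protein-coding gene, rose furthest with prednisolone. It read 9.14, 8.89 and 8.95 in untreated muscle, 9.45, 9.45 and 9.04 with spironolactone plus lisinopril, 9.23, 9.61 and 9.18 with eplerenone plus lisinopril, and 9.97, 10.29 and 10.19 with prednisolone. The prednisolone arrays lay above all others. The rise was 1.16 (SE 0.15, 2.23-fold, n = 3 per group, limma adjusted p = 0.00338), and 1.01 against untreated replicate 1 alone. It was the one member past the threshold against prednisolone in both lisinopril groups. There it was 0.84 lower with spironolactone plus lisinopril (limma adjusted p = 0.0396) and 0.81 lower with eplerenone plus lisinopril (limma adjusted p = 0.0475). Its window of 250 bases is shown as that of the furthest rise. None of the 6 motifs searched is in it, and so no letter is in capitals (RefSeq, GRCm38.p6, chr4:73950847-73951096, minus strand).
2310002L09Rik: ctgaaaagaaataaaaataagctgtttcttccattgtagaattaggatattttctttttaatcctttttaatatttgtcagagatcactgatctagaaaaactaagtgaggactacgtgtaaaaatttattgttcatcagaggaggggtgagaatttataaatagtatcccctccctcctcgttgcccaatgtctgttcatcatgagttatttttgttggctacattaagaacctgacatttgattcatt

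3 long non-coding RNAs followed. 1700120C14Rik rose by 0.84, from 8.92, 8.70 and 8.70 in untreated muscle to 9.80, 9.53 and 9.49 with prednisolone, which overlaps neither the untreated values nor those of spironolactone plus lisinopril (8.69, 9.26 and 9.13), while 1 array with eplerenone plus lisinopril, at 9.53, reached the prednisolone range. A330074K22Rik, near the lower limit at 7.01, rose by 0.80 from untreated values of 6.67, 6.32 and 6.59 to 7.29, 7.63 and 7.07. E030003E18Rik rose by 0.78, from 7.97, 7.63 and 7.68 to 8.66, 8.35 and 8.63. One eplerenone plus lisinopril array, at 8.77, exceeded all 3 prednisolone arrays of E030003E18Rik. Its promoter window holds 1 glucocorticoid receptor binding hexamer, in capitals, with its first base 53 before the start (RefSeq, GRCm38.p6, chr19:20492465-20492714, plus strand), and is shown because the gene overlaps Aldh1a1, described below.
E030003E18Rik: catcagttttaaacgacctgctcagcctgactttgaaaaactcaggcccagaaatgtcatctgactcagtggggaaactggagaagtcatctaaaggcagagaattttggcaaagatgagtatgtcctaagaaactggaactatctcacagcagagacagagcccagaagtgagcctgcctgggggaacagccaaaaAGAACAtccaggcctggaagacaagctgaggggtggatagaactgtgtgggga

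Among the members with an established function, 1500011K16Rik is now Mtln, a micropeptide of the inner mitochondrial membrane that affects fatty acid oxidation and respiratory complexes. It read 9.33, 8.77 and 8.96 in untreated muscle, 9.27, 9.50 and 9.52 with spironolactone plus lisinopril, 9.27, 9.30 and 9.17 with eplerenone plus lisinopril, and 9.52, 9.60 and 9.66 with prednisolone. Untreated replicate 1 lay among the treated arrays and the other two below all of them. The rise with prednisolone was 0.58 (SE 0.13, n = 3 per group, limma adjusted p = 0.0265), and the difference from untreated replicate 1 alone was 0.27. 9630033F20Rik, now Tigar, a fructose bisphosphatase that slows glycolysis, rose by 0.60 from 7.69, 7.85 and 7.87 to 8.25, 8.48 and 8.49. With eplerenone plus lisinopril it read 7.81, 7.77 and 7.67, at the untreated level, and its difference from prednisolone there, -0.66, just missed the threshold (limma adjusted p = 0.0559).

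3632451O06Rik (now Armh4) rose by 0.63, from 7.68, 7.43 and 7.53 to 8.24, 8.05 and 8.25 (SE 0.11, n = 3 per group, limma adjusted p = 0.00839). 2810055G20Rik, now Mir99ahg, the host transcript of the miR-99a and let-7c microRNAs, rose by 0.57, from 7.48, 7.26 and 7.23 to 7.91, 7.86 and 7.91. Its values with spironolactone plus lisinopril, 7.78, 7.66 and 8.03, and with eplerenone plus lisinopril, 7.66, 7.76 and 7.62, also lay above every untreated array, with differences of 0.50 and 0.36 that did not pass (limma adjusted p = 0.134 and 0.238). 2310067B10Rik (now Tmem94) rose by 0.57, or by 0.36 against untreated replicate 1 alone, and 2210015D19Rik (now Ube2d-ps) by 0.56. The other 10 rises lay between 0.33 and 0.56. These 10, named after their values were seen, were 2310061I04Rik (0.56), 9330159M07Rik (0.52), 2310022B05Rik (0.52), 9130023H24Rik (0.51), A430046D13Rik (0.50), 5730455P16Rik (0.49), 1700025G04Rik (0.46), 9430037G07Rik (0.44), 1700021K19Rik, now Rubcn, an inhibitor of autophagy (0.35), and 2810004N23Rik (0.33). Against untreated replicate 1 alone, 9330159M07Rik was 0.25 and 1700025G04Rik 0.27.

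**Figure D2:**
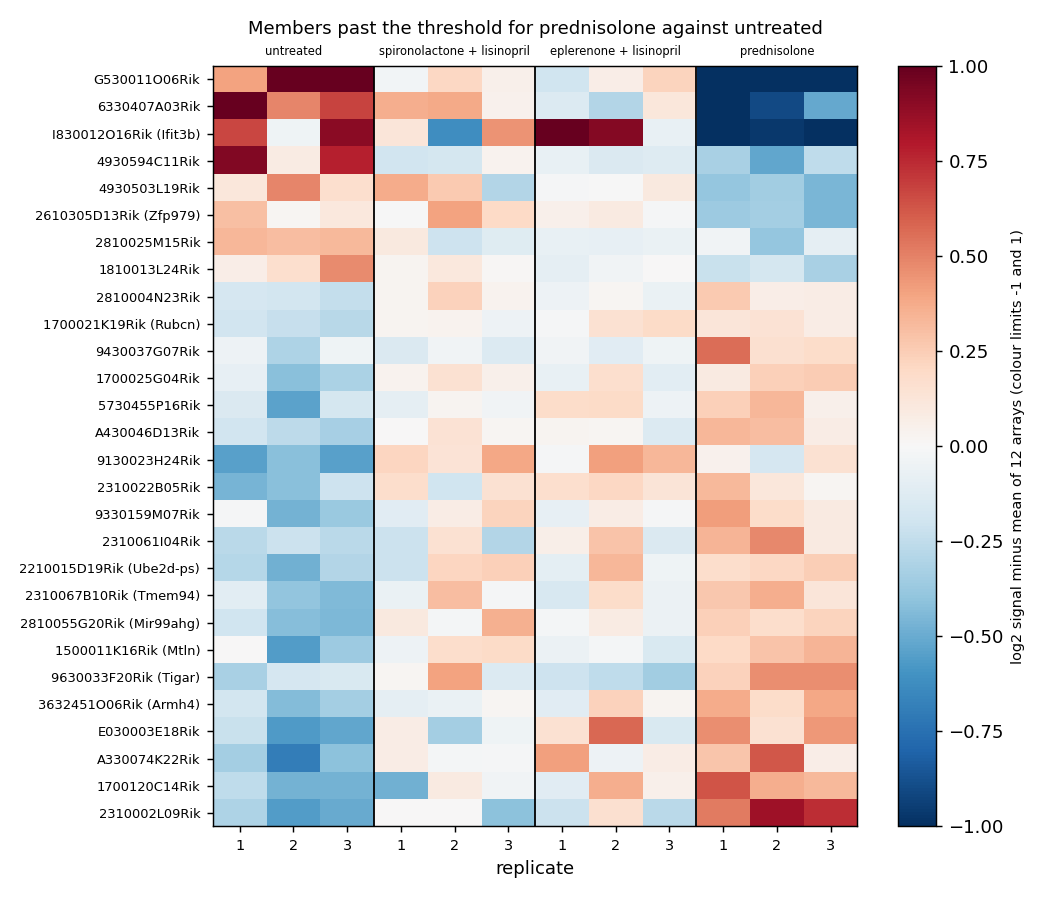
Rows are the 28 members past the threshold for prednisolone against untreated, ordered by that difference; columns are the 12 arrays by group, and colour is the log2 signal minus the member's mean over the 12 arrays, limited at -1 and 1. The 8 upper rows are low (blue) in the prednisolone arrays and the 20 lower rows high (red) there, except 9130023H24Rik in replicate 2, and untreated replicate 1 is paler than replicates 2 and 3 in several rising members such as 1500011K16Rik (Mtln).

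**Figure D3:**
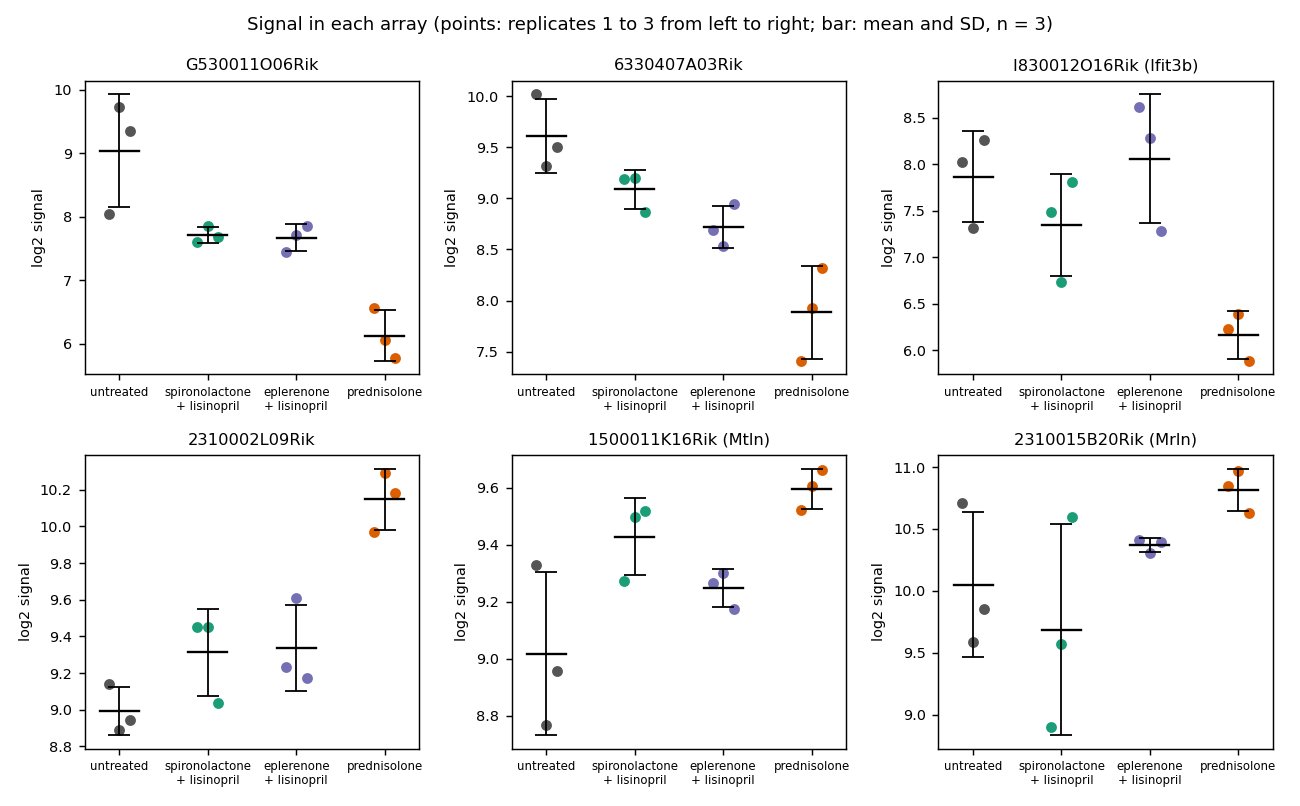
Log2 signal of 6 members in each array (points, n = 3 per group, replicates 1 to 3 from left to right) with the group mean and SD (bars), each panel on its own y axis that does not start at 0. The prednisolone arrays stand apart from all others for the first 4 members; 1500011K16Rik (Mtln) and 2310015B20Rik (Mrln) have one high untreated array, 9.33 and 10.71.

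Several other Rik names on the array belong to genes with a known role, and those were looked up by name. 2310015B20Rik, now Mrln (myoregulin, a micropeptide that inhibits the calcium pump of the sarcoplasmic reticulum), read 10.71, 9.59 and 9.86 in untreated muscle, 8.90, 9.57 and 10.60 with spironolactone plus lisinopril, 10.41, 10.30 and 10.39 with eplerenone plus lisinopril, and 10.85, 10.97 and 10.63 with prednisolone. Its untreated and spironolactone plus lisinopril arrays spread over more than 1 log2 unit, and the difference of 0.77 with prednisolone did not pass (SE 0.37, n = 3 per group, limma adjusted p = 0.263). 1810043H04Rik (now Ndufaf8, an assembly factor of respiratory complex I) differed by 0.20, 1110008F13Rik (now Rab5if) by 0.15 and 2310003H01Rik (now Faap100, of the Fanconi anaemia core complex) by 0.09 with prednisolone, none past the threshold (limma adjusted p = 0.213, 0.37 and 0.754). With Mtln, 1 of these 5 members passed. A sixth, 1110008P14Rik, ranked 281 of the 2189 Rik symbols, below the limit, and the other 5 names looked up are not used for a cluster of 1 symbol on this array.

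By kind of transcript, 11 of 62 long non-coding RNAs passed with prednisolone (17.7%, 8 higher and 3 lower), 16 of 126 protein-coding genes (12.7%, 12 higher and 4 lower), 1 of 8 transcribed pseudogenes and 0 of 4 miscellaneous RNAs. The median difference was 0.16 over the long non-coding RNAs and 0.07 over the protein-coding members. Their difference was not tested. Of the 56 renamed members 9 passed (16.1%), and of the 144 that keep a Rik symbol 19 passed (13.2%), which was not tested either. Beside these shares stand 6.39% of all tested clusters and 13.8% of the clusters as bright without a Rik name.

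Several members lie beside or over a gene that moved with them. An adjacent or overlapping gene of the gene table passed in the same direction for 7 of the 28 members past the threshold (25.0%) and in the opposite direction for 0 of 28. The same was so for 27 of the other 172 members (15.7%, same sign as the member's own difference), with 14 in the opposite direction. The difference between these shares was not tested. E030003E18Rik overlaps Aldh1a1, a retinaldehyde dehydrogenase, which rose from 10.56 ± 0.16 to 13.15 ± 0.31 (SD, n = 3), by 2.59 (limma adjusted p = 0.000193). G530011O06Rik overlaps Mid1, which differed by -0.59 and did not pass (limma adjusted p = 0.0548). G530011O06Rik lies beside Erdr1, which fell by 3.31, from 15.16 ± 0.24 to 11.85 ± 0.26 (SD, n = 3, limma adjusted p = 0.000193). With the lisinopril combinations Erdr1 differed from untreated by 0.02 and -0.31, where G530011O06Rik differed by -1.32 and -1.37. Mir99ahg lies beside the annotated Mir99a, which rose by 1.12, and read 1.11 and 0.75 above untreated in the spironolactone and eplerenone groups. 4930594C11Rik overlaps Mgat4a, an enzyme of N-glycan branching, which fell by 0.94, and lies beside Unc50, which fell by 0.38. 1700120C14Rik overlaps Mcrs1, which rose by 0.49, 2810004N23Rik lies beside Gnpat, an enzyme of ether lipid synthesis, which rose by 0.71, and 6330407A03Rik beside the pseudogene Gm11805, which fell by 0.46. Where 2 genes overlap, whether a cluster's signal comes from its own transcript or from the other gene was not tested.

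**Figure D4:**
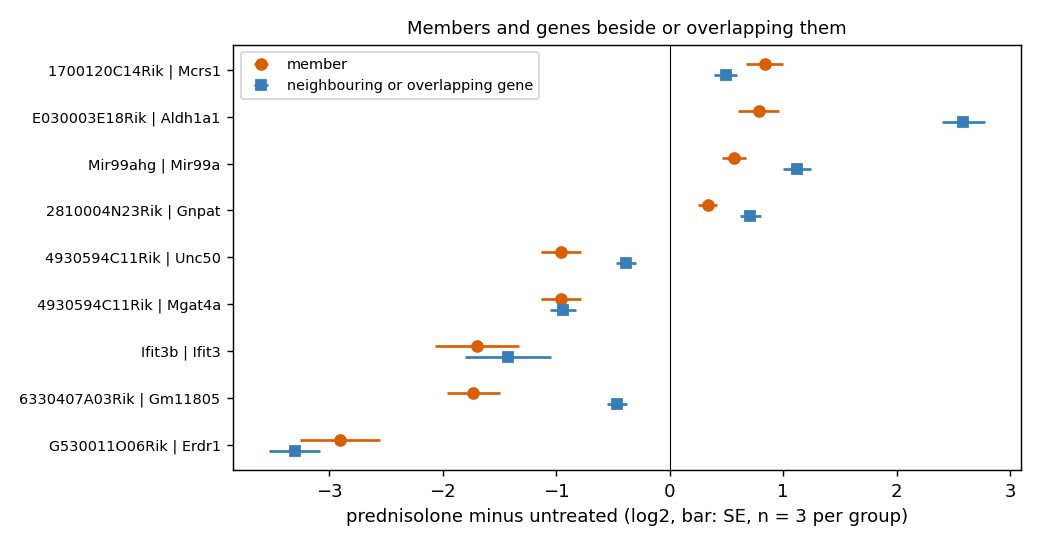
Prednisolone minus untreated difference in log2 signal (x axis, points with SE, n = 3 per group) of members (circles) and of genes beside or overlapping them (squares); each line names the member, then the gene. Only genes past the threshold in the member's direction were drawn, with Ifit3 added, so the shared direction follows from the choice. Aldh1a1 at 2.59 exceeds its member E030003E18Rik at 0.78. Ifit3, at -1.43, did not pass the threshold.

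With spironolactone plus lisinopril against untreated, 0 of 200 members passed in limma (53 at an unadjusted p under 0.05, lowest adjusted p = 0.0755), where 0.0822% of all clusters did. The differences leaned upward: the median was 0.13, and 150 members (75.0%) lay above 0, against 61.3% of the clusters as bright and 40.8% of all. The smallest p belonged to 9130023H24Rik, a protein-coding gene at 7.09, 7.21 and 7.09 in untreated muscle and 7.85, 7.77 and 8.02 with this treatment, 0.75 higher (95% interval 0.47 to 1.03). The groups did not overlap. 5430403G16Rik (0.43, limma adjusted p = 0.13) and Mir99ahg (0.50) came next. Without untreated replicate 1, 13 members passed, 11 higher and 2 lower, and without untreated replicate 2, 1 did. How many of all clusters passed in these refits was not counted, so these counts do not set the members apart.

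With eplerenone plus lisinopril against untreated, 0 of 200 passed in limma (48 at an unadjusted p under 0.05, lowest adjusted p = 0.0988), beside 0.0296% of all clusters. The median was 0.09 and 140 members (70.0%) lay above 0, against 56.2% of the clusters as bright and 44.0% of all. 9130023H24Rik again had the smallest p, at 7.62, 8.05 and 7.97, or 0.75 above untreated (95% interval 0.47 to 1.02). 1700021K19Rik (Rubcn) was 0.34 higher and 2310022B05Rik 0.53 higher, neither past the threshold (limma adjusted p = 0.151 and 0.165). Without untreated replicate 1, 4 members passed, and without untreated replicate 2, 1 did, again with no count over all clusters. All 3 comparisons with untreated share the same 3 untreated arrays, so their common upward lean is not independent.

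**Figure D5:**
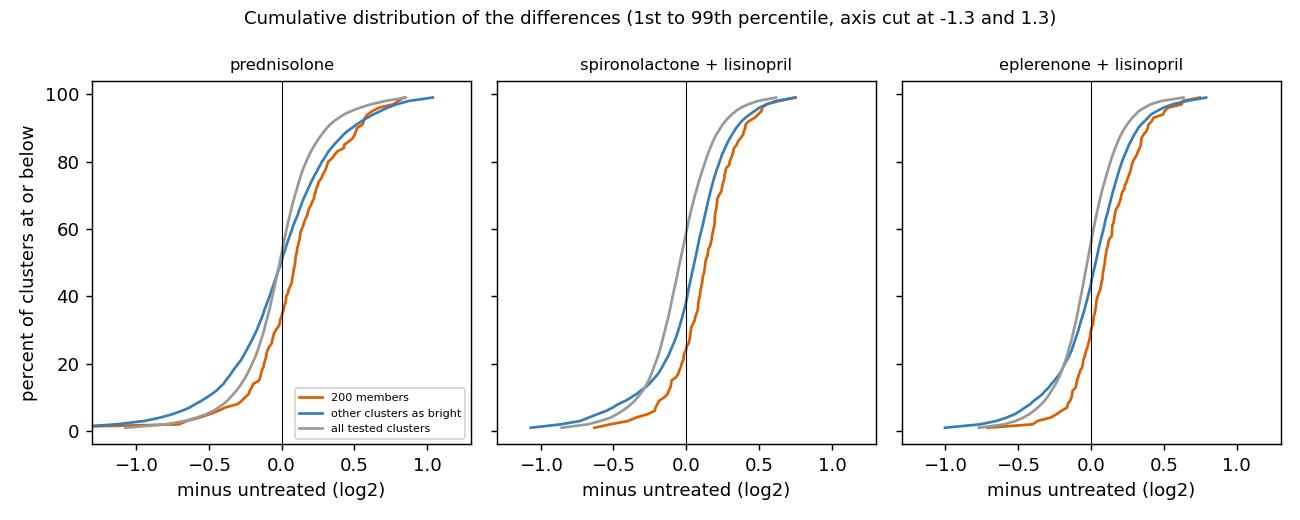
Percent of clusters (y axis) with a difference from untreated at or below the value on the x axis (log2), for the 200 members, the 10620 other clusters as bright, and all 30412 tested clusters, in 1 panel per treatment. The members' curve lies to the right of the others around the middle in all panels, with medians of 0.09, 0.13 and 0.09; the panels share the untreated arrays.

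Spironolactone and eplerenone are both steroidal blockers of the mineralocorticoid receptor. They were given at different doses, 100 and 200 mg/kg per day, and their values stand side by side above. In the direct fit 0 of 200 members passed in limma (11 at an unadjusted p under 0.05), and 0 of 30412 clusters did (0.0%, 1365 at an unadjusted p under 0.05). The members' 95% intervals reached a median of 0.26 to each side, and for 195 of 200 the interval lay within 1 log2 unit of 0, so smaller differences between the drugs were not resolved. The members with the smallest p were 5730405O15Rik (0.24 higher with spironolactone, 95% interval 0.08 to 0.41), 4930522L14Rik (0.26, 0.07 to 0.46) and 9630033F20Rik (Tigar, 0.37, 0.08 to 0.65), all at limma adjusted p = 0.998.

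Set against prednisolone, 3 members (1.5%) differed with spironolactone plus lisinopril, beside 0.822% of all clusters and 1.84% of those as bright. These were 6330407A03Rik, 1.20 higher, 2610305D13Rik (Zfp979), 0.59 higher, and 2310002L09Rik, 0.84 lower. 2610305D13Rik read 8.48, 8.89 and 8.69 with spironolactone plus lisinopril, against 8.12, 8.15 and 8.03 with prednisolone. With eplerenone plus lisinopril 1 member (0.5%) differed, 2310002L09Rik, beside 0.608% of all clusters and 1.33% of those as bright. I830012O16Rik (Ifit3b), 1.89 higher with eplerenone plus lisinopril, and Tigar, 0.66 lower, missed the threshold (limma adjusted p = 0.0521 and 0.0559). The median differences were 0.04 and 0.02, and the second was -0.02 after quantile normalization. These 3 calls and 1 call did not hold under several alternatives: after quantile normalization 1 member, lower, passed with spironolactone plus lisinopril and 2, both lower, with eplerenone plus lisinopril, while with array medians made equal 4 (3 higher, 1 lower) and 1 (higher) did. The count with spironolactone plus lisinopril was 0 without untreated replicate 3, spironolactone replicate 1 or 2, eplerenone replicate 1 or 3, or prednisolone replicate 1 or 2, and 1 without spironolactone replicate 3, eplerenone replicate 2 or prednisolone replicate 3. The count with eplerenone plus lisinopril was 0 without untreated replicate 3, spironolactone replicate 1, eplerenone replicate 1 or 2, or any of the 3 prednisolone replicates, and 2 without untreated replicate 1 or spironolactone replicate 3.

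Over all 4 groups, limma's F-test called 5 members (2.5%), against 1.93% of all clusters and 4.32% of those as bright. These were G530011O06Rik (adjusted p = 0.0154), 2310002L09Rik (0.0166), 6330407A03Rik (0.0189), 9130023H24Rik (0.0298) and 3632451O06Rik, Armh4 (0.0466). For 9130023H24Rik all 9 treated arrays, 7.46 to 8.05, lay above its 3 untreated arrays, 7.09 to 7.21. Without prednisolone replicate 1 or replicate 2 the F-test called 0 members, and without untreated replicate 1 it called 13. It called 3 without untreated replicate 3, eplerenone replicate 2 or prednisolone replicate 3, and 8 without spironolactone replicate 3. How many of all clusters it called in these refits was not counted.

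The members that varied widely but not by group were described after their values were seen. 9530091C08Rik, a long non-coding RNA, read 10.38 in untreated replicate 1 but 8.52 and 8.54 in the other two, and 8.98 to 10.28 in treated muscle. Its untreated SD of 1.07 exceeded the median untreated SD over the members, 0.14. The medians of the other groups' SDs were 0.13, 0.13 and 0.12. Both low arrays of 9530091C08Rik were the ones with high neutrophil markers, whose part was not tested.

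RefSeq promoter windows, 250 bases before to 50 after a start, were found for 159 members, 182 windows in all, and 20 of the 28 members past the threshold had one. Matches were counted on both strands in the 250 bases before the start, beside the same count over 32851 windows of all genes. The glucocorticoid receptor binding hexamer TGTTCT was in 15.4% of members' windows and 16.1% of all. Among the 20 members it lay in 2 of the 18 windows of genes that rose and in 2 of the 5 windows of genes that fell, both of the latter being the X and Y windows of G530011O06Rik. The ETS motif CCGGAAG was in 14.3% against 6.91%, the E-box CACGTG in 9.34% against 6.02%, the NRF1 core GCGCATGC in 4.4% against 2.26%, and the interferon-stimulated core in 3.85% against 7.13%. The ERR alpha motif TCAAGGTCA was in 0 of 182 windows and in 0.387% of all. The members' windows had a median GC content of 56.0%, and all windows 52.4%. ETS and NRF1 motifs are rich in G and C, and no motif was tested with GC content held equal. A match is a string of letters and not a measured binding site.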

How the data were processed

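Quadriceps RNA was hybridised to 12 one-colour Affymetrix arrays. Per the submitters' processing notes, the authors summarised probes by RMA (Affymetrix Expression Console, Transcriptome Analysis Console) and deposited log2 values. Program versions, annotation release and genome build were not given in the sources used here. Some values exceed 16, the ceiling of a 16-bit scanner, so they were rescaled at an unstated step, and folds are on the deposited scale.

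The 4 group means were fitted together (limma 3.58.1 under R 4.3.3, 12 arrays, lmFit, eBayes without trend, two-sided; checked on simulated data), with Benjamini-Hochberg adjustment over the 30412 clusters of exactly 1 symbol. The 6 comparisons shared 8 residual and 2.94 prior degrees of freedom; the median SE was 0.13. The number of arrays limits the precision, since an exact permutation test of 3 against 3 cannot go below 0.1. The labels call the arrays biological replicates.

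Members matched the RefSeq gene table (GRCm38.p6) by gene ID (184), symbol (12) or synonym (4, D930016D06Rik, 4732418A04Rik, 4930500M09Rik and 2700016F22Rik, whose identity is less sure). The 296 clusters with a Rik and another symbol were not used. The table has no gene descriptions, so a planned class by description was not formed. Members and gene lists were chosen with earlier results of these data known. Named in the text were, per comparison, up to 10 rises and 10 falls past the threshold (or the 3 smallest p), the 10 brightest, the 3 on each side of the limit, and a fixed list of renamed Rik genes; the interferon motif was added after the values were seen. Alternatives were other scalings, filters and fits, each array left out, a replicate block, and untreated replicate 1 alone as reference.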

Additional observations from a re-analysis of the deposited data

How the results depend on the processing

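The 47 named differences were each taken under 20 or 21 alternative settings, which gave 978 values in all. Of these values, 810 kept direction and side of the threshold, 139 lost and 22 gained the threshold, and 7 changed sign. With prednisolone against untreated, 28 members passed; the count was 29 after quantile normalization and 22 with array medians made equal (14 higher), 36 when only clusters at or above the median level were tested, 21 with symbols that still end in Rik, 16 with all deposited clusters tested (a larger correction), 10 with only both groups fitted (fewer residual degrees of freedom), 3 with untreated replicate 1 alone (1 array, assumed to vary like the other groups), and 4 to 31 on leaving out each array. For the other counts, leaving out each array gave 0 to 13 with spironolactone plus lisinopril and 0 to 4 with eplerenone plus lisinopril against untreated, 0 between both combinations, 0 to 4 and 0 to 2 for them against prednisolone, and 0 to 13 in the F-test. Spironolactone plus lisinopril against prednisolone, 3 members, gave 1 after quantile normalization, 6 at or above the median level, and 0 with both groups fitted or all clusters. Eplerenone plus lisinopril against prednisolone, 1 member, gave 2, 4 and 0 with quantile normalization, the median level and all clusters. The F-test, 5 members, gave 8 with equal medians, 16 at or above the median level and 3 with all clusters. The cause of these shifts was not tested beyond what is named. The share of all clusters past the threshold was not counted under the alternatives, so whether these shifts are particular to the members is not known. Deviations from the group means correlated at -0.237 to 0.157 over 18 pairs of same-numbered arrays of different groups (median 0.0226). For differently numbered arrays they correlated at -0.295 to 0.267 over 36 pairs (median -0.0115). No sign of pairing by number was seen, but such correlations cannot exclude it. With the replicate number as a block the counts were 18 for prednisolone against untreated and 2 in the F-test. They were 0 and 0 for the combinations against prednisolone, and 0 in the other comparisons. Signs changed for members that had not passed: F830016B08Rik with prednisolone was 0.267 against untreated replicate 1 alone and -0.432 to 0.552 on leaving out each array (above 0 without untreated or prednisolone replicate 3), E030024N20Rik was -0.0208 with the mean of its clusters and -0.0519 to 0.225 on leaving out each array (below 0 without either of those arrays), and 2310003H01Rik was -0.15 against untreated replicate 1 alone.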

Other observations

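Among the 1989 Rik symbols below the brightness limit, 23 passed the threshold with prednisolone against untreated, 13 higher and 10 lower; the examples here were chosen after their values were seen. Long non-coding RNAs were 10 of the 10 that fell and 9 of the 13 that rose, where 1440 of the 1989 symbols (72.4%) are listed as such. The largest falls were 4833407H14Rik, at -1.28 (SE 0.29, limma adjusted p = 0.0275), and A730049H05Rik, at -1.09 (SE 0.13, limma adjusted p = 0.00316), with n = 3 arrays per group. The largest rises among the 23 were 4930402D18Rik, a long non-coding RNA, at 0.92 (SE 0.14, limma adjusted p = 0.00526), and 1700011I03Rik, now Ccdc192, at 0.82 (SE 0.20, limma adjusted p = 0.0326). D130051D11Rik, the second symbol below the limit, rose by 0.48 (limma adjusted p = 0.0267).

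Some members have a further cluster for the same gene in the gene table. 2210418O10Rik, at 0.12 with prednisolone (limma adjusted p = 0.541), shares its entry with a cluster named Gm6182, which rose by 0.75 (limma adjusted p = 0.0327). This was the one further cluster that passed. 4930500M09Rik is matched by synonym to Uhmk1; its cluster had a level of 7.30 and differed by 0.16 with prednisolone, where the cluster named Uhmk1 had 9.99 and -0.28. 2700016F22Rik is matched by synonym to Emc1; its cluster had 7.15 and -0.22, where the cluster named Emc1 had 8.58 and 0.20. None of the differences of these last 4 clusters passed the threshold (limma adjusted p = 0.673, 0.213, 0.54 and 0.219).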
